A study of Homo sapiens with 6 samples.

Results

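The genes described here encode the translocases that carry proteins into mitochondria: every gene of the deposited table whose symbol starts with TIMM or TOMM and a number, apart from pseudogenes, with at least 1 TPM in at least 2 of 6 libraries. TPM is a transcript level scaled for gene length and to the same total in each library. Of 59962 genes in the table, 24 had such a symbol and 23 reached that level, 15 of them TIMM genes and 8 TOMM genes; a further 17 matching symbols were pseudogenes and were left out. The 24th gene, TOMM20L, was below the level. No gene of the table had the symbol TOMM40, the channel subunit of the outer membrane translocase. The libraries are total RNA from CFPAC-1, an established human line from a pancreatic ductal adenocarcinoma, in 3 groups of 2: controls with a guide to bacterial LACZ (LACZ_1 and LACZ_2), cells with SULF2 guide sgRNA1 (S1_1 and S1_2) and cells with SULF2 guide sgRNA3 (S3_1 and S3_2). The SULF2 protein is a secreted enzyme that removes sulfate from heparan sulfate chains. The labels call all 3 groups knockdowns. Neither the effector protein used with the guides nor whether a line is 1 clone or a pool is stated in those labels.

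Nearly all mitochondrial proteins are made in the cytosol and have to be imported. They enter through the TOM complex of the outer membrane, in which receptors bind the preprotein and small subunits hold a channel together. The TIM23 complex of the inner membrane then takes proteins with a cleavable presequence, with an HSP70 motor pulling on the matrix side, while the TIM22 complex inserts carrier proteins. Small TIM proteins chaperone hydrophobic clients across the space between the membranes.

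SULF2, the targeted gene, had levels of 25.7 and 22.5 TPM in LACZ cells, 8.98 and 12.8 in sgRNA1 cells and 10.1 and 9.24 in sgRNA3 cells, with no overlap between LACZ and either guide. It fell by 1.09 on the log2 scale with sgRNA1 (limma adjusted p = 0.0338) and by 1.23 with sgRNA3 (0.0215). The sgRNA1 call was lost without LACZ_1, LACZ_2, S1_1, S3_1 or S3_2 (limma adjusted p = 0.159, 0.119, 0.0737, 0.0696 and 0.0695), and the sgRNA3 call without either LACZ library or either S3 library (0.106, 0.0888, 0.0853 and 0.0973). Of 9 duct epithelium markers, 8 reached the level for testing in libraries whose summed level was 8026 to 9234 TPM, and the remaining marker, the chloride channel gene CFTR, was at 0.07 to 0.38 TPM. The sum was lower with the guides (8026 and 8208 TPM with sgRNA1, 8638 and 8684 with sgRNA3) than in LACZ (9061 and 9234). The markers did not all move this way. KRT19, KRT18, CDH1 and SOX9 lay below LACZ in every guide library, with the largest falls in TPM in KRT19 and KRT18. KRT8 and EPCAM lay above LACZ in both sgRNA3 libraries, and MUC1 overlapped LACZ with both guides. Of the markers of other cell types, the 6 fibroblast genes summed to 77.5 and 77.9 TPM in LACZ, 58.6 and 60.5 with sgRNA1 and 37.6 and 41.7 with sgRNA3, nearly all of it COL1A1. The part of these marker shifts in the results below was not tested. The 5 leukocyte genes summed to 93.0 to 112 TPM, led by CD68, with the leukocyte-defining PTPRC at 0.1 TPM or less. The 4 endothelial, 4 acinar and 4 islet genes summed to at most 5.25, 1.48 and 0.16 TPM, with AMY2A, INS, GCG and SST at 0 in all 6 libraries. In RNA from bulk cultures, a shift in the mix of cells and a shift of RNA within cells cannot be told apart.

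The same 4 members were called higher with both guides, and no member was called lower with either. The 4 were TIMM21 and TIMM17A of the TIM23 complex, the small chaperone TIMM8B and the small outer membrane subunit TOMM6. The largest decreases with sgRNA1 were those of TIMM23B and TIMM9, both below LACZ in each sgRNA1 library. Their log2 changes were -0.52 and -0.41 and did not pass (limma adjusted p = 0.12 and 0.0753). TIMM21 about doubled, to 213% and 216% of LACZ, while the others reached 113% to 144%. The share of members called higher was 17.4% with either guide, beside 1.69% of all 16610 genes tested with sgRNA1 and 3.84% with sgRNA3. These shares are not matched for level, and members lie above the typical gene. With a filter of TPM at least 5, 390 of 11960 genes were called higher with sgRNA1 and 795 with sgRNA3, beside 4 members with each guide. The share with an unadjusted limma p under 0.05, in either direction, was near that of all genes. It was 30.4% of members beside 24.6% of all genes with sgRNA1, and 26.1% beside 28% with sgRNA3. When any 1 library was left out, 0 to 1 members passed with sgRNA1 and 0 to 2 with sgRNA3. In either direction 6% and 9.08% of all genes were called. With both guides 1.15% of genes were called higher and 2.9% lower. The LACZ libraries serve both comparisons, and the calls with one guide are not independent of those with the other. A call is a two-sided limma p adjusted by the Benjamini-Hochberg method over all genes tested, under 0.05, on log2(TPM + 1).

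RefSeq windows around the start site (GRCh38.p14, 250 bases before to 50 after it) were found for 21 of the 23 members, among them 3 of the 4 that rose. The upstream parts of those 3, ending before the gene start in GENCODE 29, are shown because these genes rose together. Capitals mark any match to the motifs named in the next paragraph.
TIMM17A, chr1:201955253-201955490, plus strand: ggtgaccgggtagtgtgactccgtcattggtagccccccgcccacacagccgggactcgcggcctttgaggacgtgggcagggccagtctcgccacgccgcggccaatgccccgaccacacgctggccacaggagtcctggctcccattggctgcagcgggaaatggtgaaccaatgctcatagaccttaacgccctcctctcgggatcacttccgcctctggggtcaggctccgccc
TIMM21, chr18:74148273-74148510, plus strand: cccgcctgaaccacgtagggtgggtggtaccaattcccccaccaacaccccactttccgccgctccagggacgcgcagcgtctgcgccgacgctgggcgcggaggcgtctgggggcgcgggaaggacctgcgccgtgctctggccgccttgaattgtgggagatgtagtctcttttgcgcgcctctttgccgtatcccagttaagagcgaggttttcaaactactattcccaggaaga
TOMM6, chr6:41787444-41787661, plus strand: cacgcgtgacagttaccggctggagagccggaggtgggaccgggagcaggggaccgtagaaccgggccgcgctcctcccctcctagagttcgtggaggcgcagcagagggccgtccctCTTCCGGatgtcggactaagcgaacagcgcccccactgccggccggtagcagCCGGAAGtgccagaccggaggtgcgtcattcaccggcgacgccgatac

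The 3 windows did not share any of the 5 motifs searched on both strands of the 300-base windows. Only the TOMM6 window had a match, a pair of CCGGAAG sites, the core bound by ETS factors such as GABPA, which is known for nuclear genes of mitochondrial proteins. Across the 21 members, CCGGAAG was found in 11 windows (52.4%), 6 of TIMM genes and 5 of TOMM genes, beside 16.6% of the 15424 windows of genes tested here and 10.3% of all 35116 windows. The NRF1 motif was found in 4 members (19.0%), TIMM29, TOMM7, TOMM20 and TOMM34, beside 9.63% of windows of genes tested. The YY1 motif AANATGGCG was found in TIMM44, TIMM50 and TOMM40L (14.3%, beside 5.72%). The E-box CACGTG, bound by MYC, was found in TIMM8A, TIMM10 and TOMM20 (14.3%, beside 9.19%). The composite site TGATGNAA of ATF4 was found in TIMM22 alone (4.76%, beside 2.01%). A match describes these letters only.

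**Figure D1:**
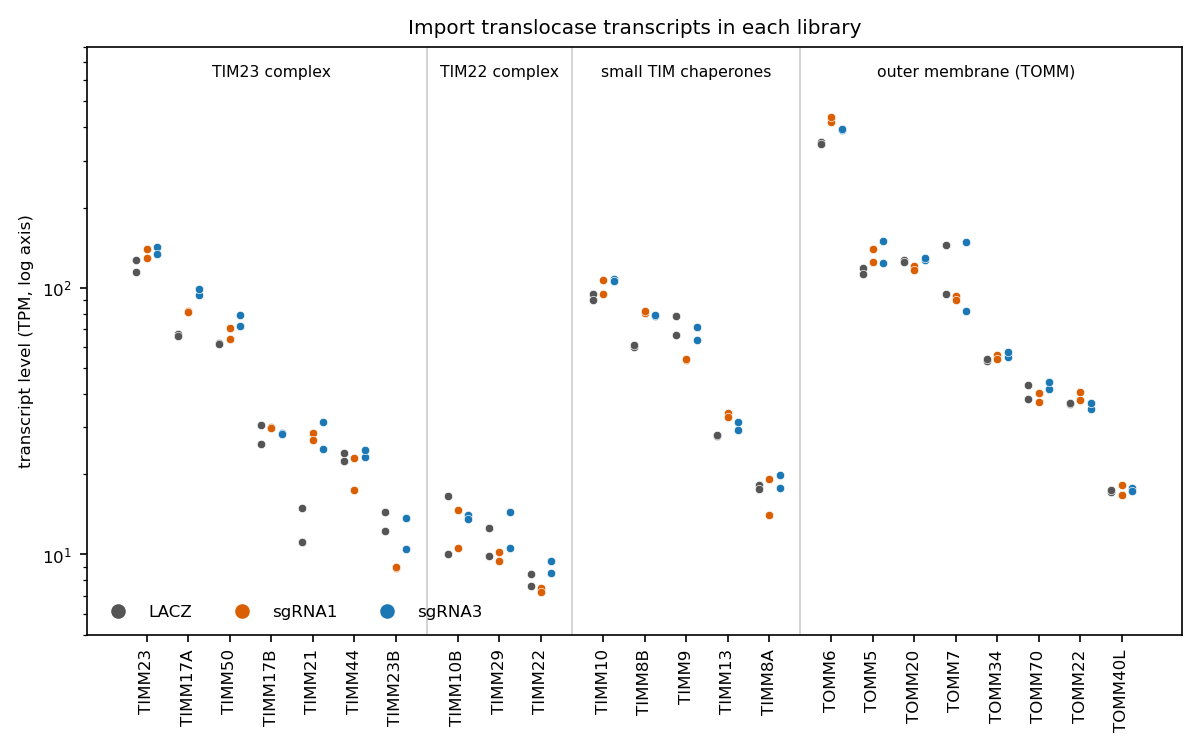
Level of each member in each library (TPM, log axis), grouped by complex; each point is 1 library, with LACZ in grey, sgRNA1 in orange and sgRNA3 in blue. TOMM6 lies above all others at 345 to 437 TPM, and the TIM22 subunits, TIMM23B and the LACZ points of TIMM21 lie lowest. The 4 guide libraries lie above both LACZ libraries for TIMM21, TIMM17A, TIMM8B and TOMM6. They also do so for TIMM10, TIMM13, TIMM23, TIMM50, TOMM5 and TOMM34, which did not pass. The share of all genes with such a separation was not counted.

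Levels spanned 47.9-fold between the highest member, TOMM6 (mean 389.8 TPM over the 6 libraries), and the lowest, TIMM22 (8.13 TPM). The median member was at 28.9 TPM among TIMM genes and 81.9 TPM among TOMM genes, beside 12.9 TPM over all genes tested. By the mean over all 6 libraries the 3 TIM22 subunits and TIMM23B were the lowest members. In LACZ alone TIMM21 was among them, at a mean of 13.0 TPM beside 13.3 for TIMM10B and for TIMM23B. The mean absolute log2 difference between the replicates of a group had a median of 0.12 over TIMM genes and 0.06 over TOMM genes, beside 0.16 over all genes tested. It was above the median of all genes for 7 members, TOMM7 (0.50), TIMM10B (0.39), TIMM29 (0.27), TIMM21 (0.27), TIMM8A (0.21), TIMM23B (0.19) and TIMM44 (0.19). TOMM7, a small subunit that steadies the TOM complex, was at 145 and 94.5 TPM in LACZ, 93.4 and 90.2 with sgRNA1 and 148 and 82.0 with sgRNA3. The LACZ replicates and the sgRNA3 replicates of TOMM7 differed by more than any of its group means did, and its sgRNA1 replicates by less.

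The presequence translocase was the complex with the largest single change. TIMM21, which tethers TIM23 to the outer membrane and takes part in respiratory chain assembly, was at 11.1 and 14.9 TPM in LACZ, 28.6 and 26.9 with sgRNA1 and 24.8 and 31.4 with sgRNA3. Every guide library lay above both LACZ libraries. The gene (ENSG00000075336, GRCh38 chromosome 18, 74148511 to 74160530) changed by 1.05 on the log2 scale with sgRNA1 (SE 0.17, limma adjusted p = 0.0346) and by 1.06 with sgRNA3 (adjusted p = 0.0287). No 50-base stretch of its transcripts in GENCODE 29 occurs in another gene. Both calls were lost when any 1 of the 6 libraries was left out (in the order LACZ, S1, S3, limma adjusted p = 0.126, 0.0713, 0.125, 0.135, 0.0542 and 0.0547 with sgRNA1, and 0.0993, 0.0645, 0.0622, 0.0615, 0.0701 and 0.111 with sgRNA3), while the log2 change stayed between 0.85 and 1.25 in all alternatives.

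TIMM17A, which lines the TIM23 translocation path with TIMM23, was at 67.3 and 65.9 TPM in LACZ, 81.6 and 80.9 with sgRNA1 and 93.8 and 98.6 with sgRNA3. The 3 groups did not overlap, with LACZ lowest and sgRNA3 highest. The gene (ENSG00000134375, chromosome 1, 201955491 to 201970661) changed by 0.28 with sgRNA1 (SE 0.05, limma adjusted p = 0.0406) and by 0.52 with sgRNA3 (adjusted p = 0.00862). The difference between the guides, 0.24, did not pass (limma adjusted p = 0.138). The sgRNA1 call was lost when any 1 of the 6 libraries was left out (in the same order, limma adjusted p = 0.151, 0.162, 0.12, 0.135, 0.0809 and 0.0813), and the sgRNA3 call without LACZ_1, LACZ_2 or S3_2 (0.055, 0.0604 and 0.0573).

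TIMM17B, the X-linked paralog that can take the place of TIMM17A in the complex, was at 26.1 and 30.7 TPM in LACZ, 30.0 and 29.8 with sgRNA1 and 28.5 and 28.3 with sgRNA3, and its guide libraries lay within the LACZ range. The ratio of TIMM17A to TIMM17B was 2.58 and 2.15 in LACZ, 2.72 and 2.71 with sgRNA1 and 3.29 and 3.48 with sgRNA3. All 4 guide libraries had a higher ratio than both LACZ libraries. For the log2 ratio of 4 libraries with a guide to SULF2 and 2 with the control guide, an exact two-sided permutation test gave p = 0.133 (0.2 after Benjamini-Hochberg adjustment over 6 pairs of members). The smallest p this design allows is 0.0667. The pairs were chosen after their values were seen, so this p is descriptive only.

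TIMM23, the channel-forming subunit and the highest member of the inner membrane, was at 128 and 114 TPM in LACZ, 140 and 129 with sgRNA1 and 142 and 134 with sgRNA3, and did not pass (changes in log2 of 0.16 and 0.19, limma adjusted p = 0.284 and 0.18). Its copy TIMM23B, also on chromosome 10, was at 12.3 and 14.4 TPM in LACZ, 8.91 and 8.97 with sgRNA1 and 13.7 and 10.5 with sgRNA3 (changes in log2 of -0.52 and -0.13, limma adjusted p = 0.12 and 0.632). Reads may be shared between them, since 199 of 1173 distinct 50-base stretches of TIMM23 transcripts also occur in TIMM23B, and their levels are uncertain to that extent. Their sum was 140 and 129 TPM in LACZ, 149 and 138 with sgRNA1 and 156 and 144 with sgRNA3. TIMM50, the presequence receptor of the complex, was at 62.1 and 61.7 TPM in LACZ, 70.8 and 64.0 with sgRNA1 and 72.1 and 79.0 with sgRNA3. All its guide libraries lay above LACZ, and neither change passed (0.12 and 0.28, limma adjusted p = 0.397 and 0.0799). TIMM44, which anchors the HSP70 motor to the channel, had log2 changes of -0.20 and 0.04 (limma adjusted p = 0.438 and 0.893).

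The TIM22 complex was low in every group and none of its 3 members passed. TIMM22, its channel subunit, was at 7.60 and 8.48 TPM in LACZ, 7.51 and 7.25 with sgRNA1 and 9.44 and 8.5 with sgRNA3. The accessory subunit TIMM29, which links TIM22 to the TOM complex, and TIMM10B, the small TIM attached to TIM22, were at 9.49 to 14.4 and 10.1 to 16.6 TPM over the 6 libraries. For all 3 the log2 change was below 0 with sgRNA1 (-0.17 to -0.05) and above 0 with sgRNA3 (0.09 to 0.14), and the difference between the guides did not pass for any of them (limma adjusted p = 0.418 for TIMM22, 0.509 for TIMM29 and 0.844 for TIMM10B).

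Among the small chaperones of the intermembrane space, TIMM8B alone was called higher. It was at 59.9 and 61.2 TPM in LACZ, 80.5 and 81.9 with sgRNA1 and 78.2 and 79.0 with sgRNA3. The replicates differed by less than those of nearly all genes (1.01 percentile), and the guide libraries stood well above LACZ. The gene (ENSG00000150779, chromosome 11, 112084800 to 112086798) changed by 0.42 with sgRNA1 (SE 0.05, limma adjusted p = 0.0145) and by 0.37 with sgRNA3 (adjusted p = 0.0157). The calls were lost without LACZ_1 or LACZ_2 (limma adjusted p = 0.0895 and 0.0809 with sgRNA1, 0.0877 and 0.0803 with sgRNA3), without S1_1 or S1_2 for sgRNA1 (0.0592 and 0.0753) and without S3_1 or S3_2 for sgRNA3 (0.0855 and 0.0909). Exons of NKAPD1 on the opposite strand overlap those of TIMM8B over 351 bases, and no source used here gives the strandedness, so reads of both genes cannot be told apart there. NKAPD1 was at 43.9 and 41.6 TPM in LACZ, 33.1 and 31.5 with sgRNA1 and 28.5 and 36.0 with sgRNA3, below LACZ in every guide library, and did not pass (limma adjusted p = 0.122 and 0.0991). The sum of both genes was 104 and 103 TPM in LACZ, 114 and 113 with sgRNA1 and 107 and 115 with sgRNA3, a smaller step than that of TIMM8B alone. The part of this overlap in the TIMM8B calls was not tested.

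TIMM8A, the paralog of TIMM8B whose loss causes deafness-dystonia syndrome, was at 18.3 and 17.7 TPM in LACZ, 14.0 and 19.2 with sgRNA1 and 19.9 and 17.8 with sgRNA3. It partners with TIMM13, which was at 27.8 and 28.0 TPM in LACZ, 33.8 and 32.9 with sgRNA1 and 31.3 and 29.4 with sgRNA3. TIMM13 lay above LACZ in every guide library and did not pass (changes in log2 of 0.25 and 0.12, limma adjusted p = 0.1003 and 0.338). TIMM9 and TIMM10 form the main carrier chaperone together. TIMM10 was at 94.5 and 89.9 TPM in LACZ, 94.9 and 107 with sgRNA1 and 108 and 106 with sgRNA3. TIMM9 was at 66.7 and 78.1 TPM in LACZ, 53.8 and 54.3 with sgRNA1 and 71.5 and 63.9 with sgRNA3, with sgRNA1 below LACZ and sgRNA3 overlapping it. Neither gene passed with either guide (limma adjusted p = 0.336 and 0.124 for TIMM10, 0.0753 and 0.582 for TIMM9).

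The ratio of TIMM10 to TIMM9 was 1.42 and 1.15 in LACZ, 1.76 and 1.97 with sgRNA1 and 1.51 and 1.66 with sgRNA3. The ratio of TIMM8B to TIMM13 was 2.16 and 2.18 in LACZ, 2.38 and 2.49 with sgRNA1 and 2.5 and 2.69 with sgRNA3. In both pairs every guide library was above both LACZ libraries, and the exact permutation p was 0.0667, the smallest this design allows (0.2 adjusted over the 6 pairs). All 6 pairs were chosen after their values were seen, so these p-values are descriptive only. The test also takes the libraries of both guides as 1 group. TIMM8B to TIMM8A ran from 3.28 and 3.46 in LACZ to 3.92 to 5.73 with the guides (exact permutation p = 0.133). The ratios of TIMM23 to TIMM23B and of TIMM10 to TIMM10B overlapped between the guides and LACZ (exact permutation p = 0.2 and 0.733). Exons of KIAA0586 and TOMM20L on the opposite strand overlap TIMM9, and those of LMNB2 on the same strand overlap TIMM13, so these levels carry that uncertainty.

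**Figure D2:**
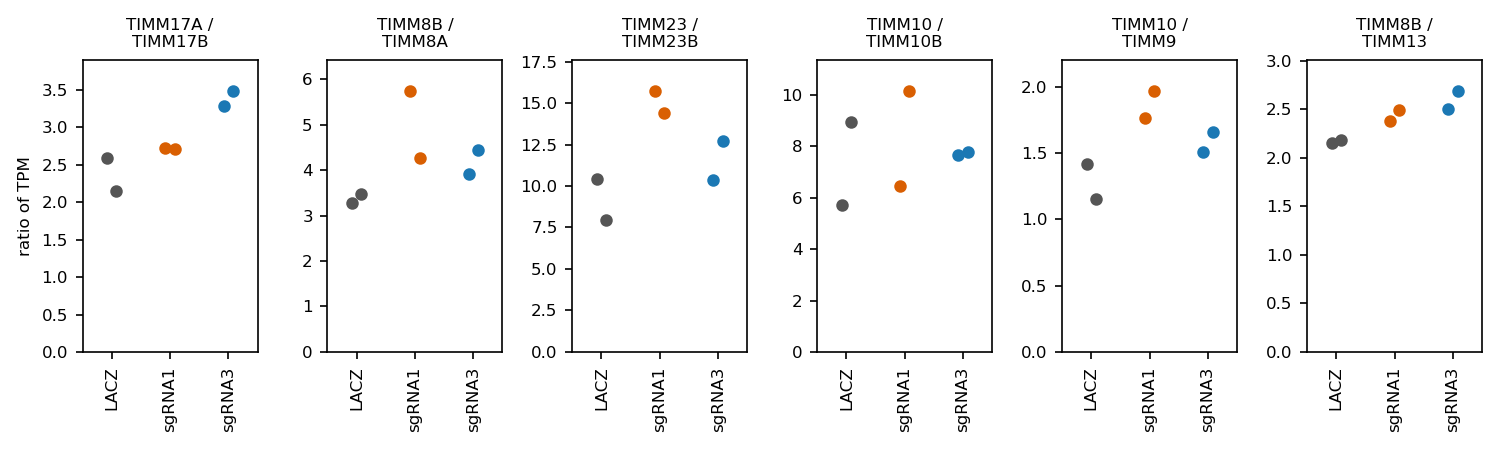
Ratio of TPM between paired members in each library (1 point per library, axes from 0), for paralogs, partner subunits and near-identical copies. The guide libraries lie above both LACZ libraries for TIMM17A to TIMM17B, TIMM8B to TIMM8A, TIMM10 to TIMM9 and TIMM8B to TIMM13, and overlap them in the other pairs.

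Of the 8 outer membrane genes, TOMM6 alone passed. TOMM6, a small subunit that helps assemble and hold the TOM complex, was at 351 and 345 TPM in LACZ, 418 and 437 with sgRNA1 and 392 and 395 with sgRNA3. The 3 groups did not overlap, with sgRNA1 highest. The gene (ENSG00000214736, chromosome 6, 41787662 to 41789898) changed by 0.30 with sgRNA1 (SE 0.04, limma adjusted p = 0.0166) and by 0.18 with sgRNA3 (adjusted p = 0.0465). The difference between the guides was -0.12 (limma adjusted p = 0.234). The sgRNA1 call was lost without LACZ_1, LACZ_2, S1_2, S3_1 or S3_2 (limma adjusted p = 0.0885, 0.0964, 0.0742, 0.0501 and 0.0502). The sgRNA3 call was lost when any 1 of the 6 was left out (0.141, 0.167, 0.0562, 0.056, 0.163 and 0.178) and under median-of-ratios scaling (0.0517). All 635 distinct 50-base stretches of TOMM6 transcripts also occur in AL365205.1, a gene model on the same strand that spans TOMM6, so the split of reads between them is uncertain. AL365205.1 was at 24.4 and 26.2 TPM in LACZ, 19.6 and 19.0 with sgRNA1 and 20.3 and 19.4 with sgRNA3 (limma adjusted p = 0.0626 and 0.0655). The sum of both was 375 and 371 TPM in LACZ, 438 and 456 with sgRNA1 and 412 and 415 with sgRNA3, which did not overlap either.

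The receptors of the outer membrane did not pass. TOMM20, which binds presequences, was at 127 and 125 TPM in LACZ, 121 and 117 with sgRNA1 and 127 and 129 with sgRNA3 (changes in log2 of -0.09 and 0.02, limma adjusted p = 0.292 and 0.753). TOMM22, the central receptor, was at 36.6 and 37.03 TPM in LACZ, 40.6 and 38.1 with sgRNA1 and 35.03 and 37.02 with sgRNA3. Both sgRNA1 libraries lay above the other 4, and the changes of 0.09 and -0.03 did not pass (limma adjusted p = 0.467 and 0.812). TOMM70, which receives carriers from cytosolic chaperones, was at 37.2 to 44.5 TPM with overlapping groups. TOMM5, a small subunit, was at 118 and 113 TPM in LACZ, 125 and 139 with sgRNA1 and 149 and 124 with sgRNA3. Exons of AL138752.2 on the same strand overlap it over 520 bases. Its guide libraries lay above LACZ, but the log2 changes of 0.19 and 0.23 had an SE of 0.10 and did not pass (limma adjusted p = 0.33 and 0.223). TOMM40L, a paralog of the channel subunit, at 16.7 to 18.2 TPM, and TOMM34, a cytosolic co-chaperone despite its name, at 53.2 to 57.5 TPM, had log2 changes of 0.01 to 0.07.

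**Figure D3:**
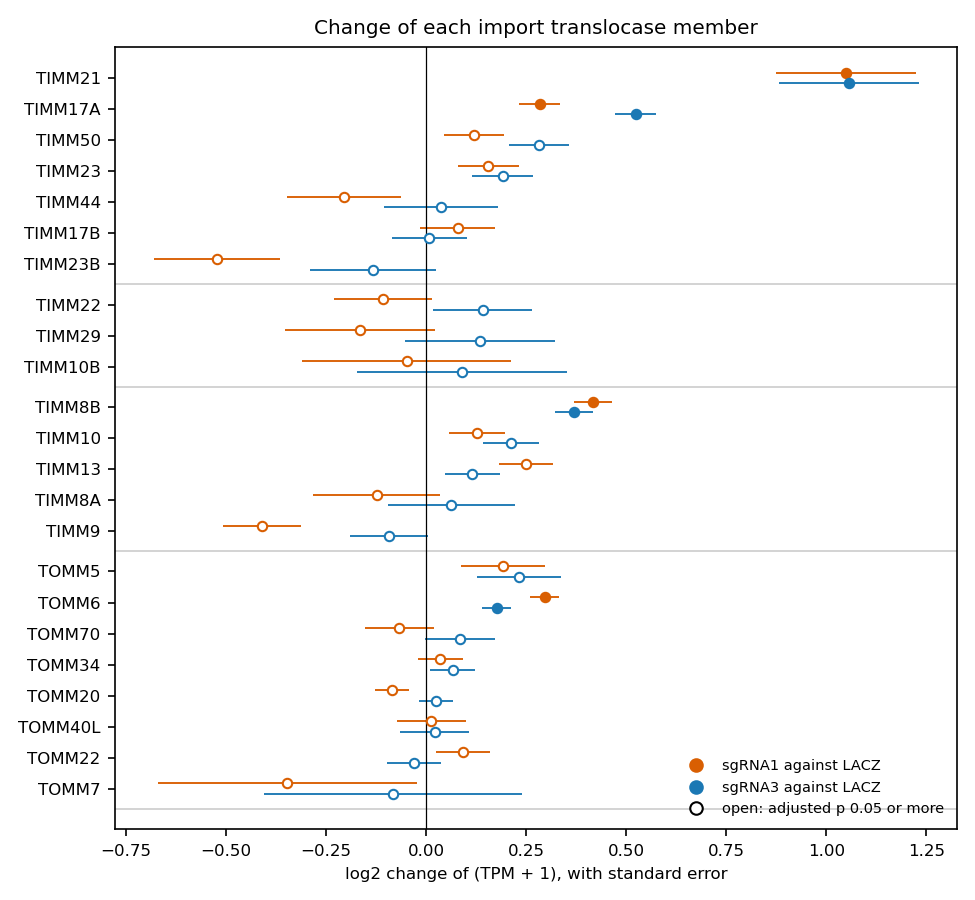
Log2 change of (TPM + 1) of each member against LACZ with its standard error, sgRNA1 in orange and sgRNA3 in blue; from the top, blocks are the TIM23 complex, the TIM22 complex, the small TIM chaperones and the TOMM genes, and filled points have an adjusted p under 0.05. The filled points are TIMM21, TIMM17A, TIMM8B and TOMM6 with both guides, all to the right of 0.

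Inner and outer membrane genes were then set side by side. With sgRNA1, 3 of 15 TIMM genes and 1 of 8 TOMM genes were called higher, and the counts with sgRNA3 were the same. The median log2 change with sgRNA1 was 0.08 for TIMM genes and 0.02 for TOMM genes, beside -0.07 over all genes tested. With sgRNA3 it was 0.13 and 0.05, beside -0.05. The TOMM median turned to -0.02 with sgRNA1 when S1_1 was left out and to 0.07 when S1_2 was, and with sgRNA3 it was 0.11 without LACZ_1 and 0.02 without LACZ_2. The TIMM median was 0.12 with sgRNA1 without LACZ_1, and with sgRNA3 it was 0.25 without LACZ_1, 0.073 without S3_1 and 0.21 without S3_2. The sign of single small changes carries little weight. With sgRNA1, 8 of 15 TIMM genes (53.3%) and 5 of 8 TOMM genes (62.5%) were above 0, beside 40.5% of all genes tested. With sgRNA3, 13 of 15 (86.7%) and 6 of 8 (75%) were above 0, beside 44.5%. Under median-of-ratios scaling, which sets the median over all genes near 0, the medians were 0.16 and 0.10 with sgRNA1 and 0.18 and 0.09 with sgRNA3. No test of the difference between TIMM and TOMM genes was made.

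The summed level of the 15 TIMM genes was 633 and 629 TPM in LACZ, 692 and 680 with sgRNA1 and 745 and 735 with sgRNA3. The 3 groups did not overlap, and the means were 631 ± 2.62, 686 ± 9.06 and 740 ± 6.77 TPM (SD, n = 2 each). The sum includes the called genes TIMM21, TIMM17A and TIMM8B. Their means were 13.0, 66.6 and 60.6 TPM in LACZ, 27.7, 81.3 and 81.2 with sgRNA1 and 28.1, 96.2 and 78.6 with sgRNA3. With sgRNA1, 7 of the 15 genes had a log2 change below 0, and 2 with sgRNA3. In LACZ, TIMM23 and TIMM9 had SDs of 9.55 and 8.08 TPM in opposite directions, which partly cancel in the sum. The summed level of the 8 TOMM genes was 891 and 824 TPM in LACZ, 913 and 929 with sgRNA1 and 966 and 887 with sgRNA3, and sgRNA3 overlapped LACZ. No gene of the table had the symbol TOMM40, so this sum and the ratios below leave out the channel subunit. TOMM6 made up 40.6% of the outer membrane sum in LACZ, and TOMM7 made up most of the difference between replicates in LACZ and sgRNA3. The ratio of the inner to the outer sum was 0.710 and 0.763 in LACZ, 0.759 and 0.731 with sgRNA1 and 0.771 and 0.829 with sgRNA3. It overlapped LACZ with sgRNA1 and lay above LACZ in both sgRNA3 libraries. The nearest LACZ and S3 libraries were closer to each other than the S3 replicates were. The mean ratio was 0.737 ± 0.038 in LACZ and 0.800 ± 0.041 with sgRNA3 (SD, n = 2 each). Without TOMM6 the ratio was 1.17 and 1.31 in LACZ, 1.40 and 1.38 with sgRNA1 and 1.296 and 1.496 with sgRNA3, and it then lay above LACZ with sgRNA1 and overlapped LACZ with sgRNA3. By complex, the TIM23 sum ran 329 and 326 TPM in LACZ, 383 and 357 with sgRNA1 and 398 and 406 with sgRNA3. The small TIM sum ran 267 and 275, 277 and 295, and 309 and 296 TPM in the same order, and the TIM22 sum overlapped in all groups (27.3 to 37.9 TPM).

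**Figure D4:**
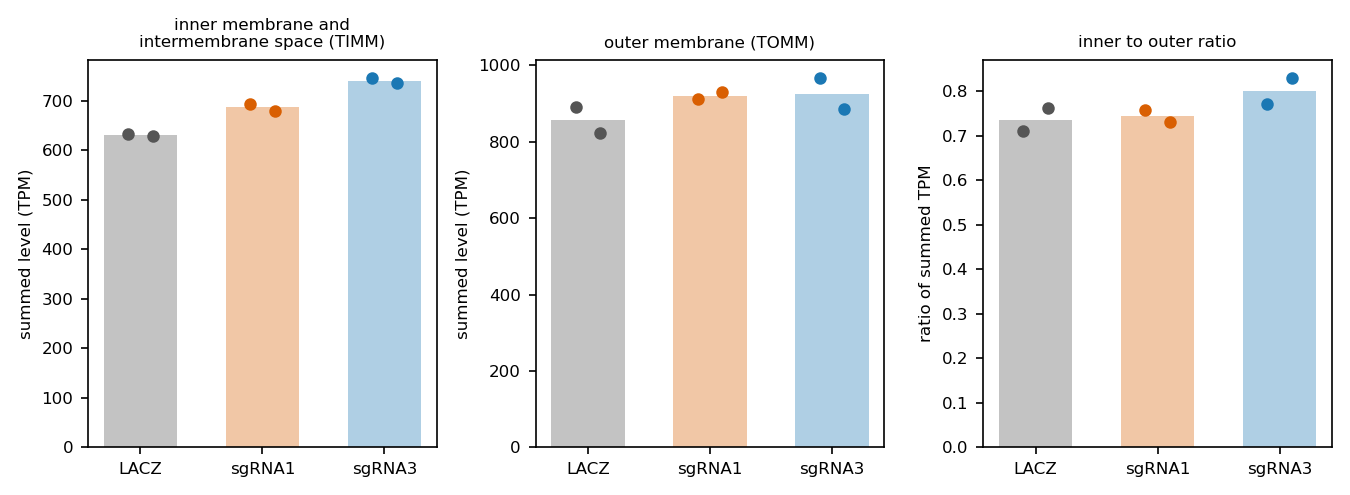
Summed TPM of the 15 TIMM genes, of the 8 TOMM genes and the ratio of the sums; bars are group means of 2 libraries, points are single libraries and axes start at 0. The TIMM sum separates the 3 groups at 629 to 633, 680 to 692 and 735 to 745 TPM, while the TOMM sum of sgRNA3 overlaps that of LACZ and the ratio of sgRNA1 overlaps that of LACZ.

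Between the guides, 0 of the 23 members passed in limma (0.578% of all genes did), and 4 members (17.4%) had an unadjusted p under 0.05, beside 15.4% of all genes. Of the 23 members, 18 (78.3%) were higher with sgRNA3 than with sgRNA1, beside 56.8% of all genes tested. The median log2 difference of the members was 0.11, beside 0.04 over all genes tested. The largest differences were those of TIMM23B (0.39) and TIMM9 (0.32), with limma adjusted p = 0.335 and 0.237.

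Other genes of the import route were taken from a list of 46, all of which were tested. With sgRNA1, 3 were called higher and 1 lower, and with sgRNA3, 9 were called higher and 1 lower. That is 6.52% and 19.6% called higher, beside the 1.69% and 3.84% of all genes given above. Most of these calls were chaperones. Cytosolic chaperones made up 2 of the higher calls with sgRNA1 and 4 with sgRNA3, and matrix folding genes 1 and 2. The list was chosen with earlier results of these data known, so its share is descriptive only. The lower share called was 4.31% of all genes with sgRNA1 and 5.25% with sgRNA3. The list's median log2 change was 0.04 and 0.06. Without LACZ_1, LACZ_2, S1_1 and S1_2 in turn, 3, 3, 3 and 2 genes of the list passed with sgRNA1, and without LACZ_1, LACZ_2, S1_1, S3_1 and S3_2, 3, 2, 6, 2 and 3 passed with sgRNA3, beside 10 with all libraries.

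The gene called lower with both guides was GRPEL2, a nucleotide exchange factor of the mitochondrial HSP70 in the TIM23 motor. It was at 28.7 and 29.7 TPM in LACZ, 11.9 and 11.2 with sgRNA1 and 11.3 and 15.7 with sgRNA3, with no overlap. It fell to 39.6% and 46.2% of LACZ, by 1.27 (SE 0.16, limma adjusted p = 0.0173) and 1.08 (adjusted p = 0.0221) on the log2 scale. The sgRNA1 call did not hold without either LACZ library or either S1 library (limma adjusted p = 0.0986, 0.1001, 0.0753 and 0.0983) and the sgRNA3 call without LACZ_1, LACZ_2, S1_1 or S3_1 (0.0993, 0.109, 0.0501 and 0.0558). Its paralog GRPEL1 was at 35.5 and 40.3 TPM in LACZ, 41.9 and 38.9 with sgRNA1 and 54.1 and 50.3 with sgRNA3, and rose with sgRNA3 (log2 change 0.45, limma adjusted p = 0.0433). That call was lost when any 1 of the 6 libraries was left out (0.151, 0.0894, 0.0691, 0.0685, 0.165 and 0.121). The motor HSP70 itself, HSPA9, was at 296 and 304 TPM in LACZ, 308 and 273 with sgRNA1 and 302 and 306 with sgRNA3 (changes in log2 of -0.05 and 0.02, limma adjusted p = 0.686 and 0.875). The other motor genes, DNAJC19, DNAJC15 and PAM16, did not pass, nor did ROMO1, which was listed with them.

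Of 6 cytosolic chaperones that hand preproteins to the TOM receptors, 2 were called higher with sgRNA1 and 4 with sgRNA3. HSPA8, the constitutive HSP70, and its partner DNAJA1 rose with both guides and passed with each library left out. DNAJA1 was at 89.6 and 92.3 TPM in LACZ, 142 and 143 with sgRNA1 and 163 and 161 with sgRNA3 (changes in log2 of 0.64 and 0.82, limma adjusted p = 0.00278 and 0.00145). HSPA8 was at 567 and 618 TPM in LACZ, 1223 and 1202 with sgRNA1 and 1400 and 1443 with sgRNA3 (changes in log2 of 1.03 and 1.26, limma adjusted p = 0.00117 and 0.00111). The HSP90 genes HSP90AA1 and HSP90AB1 passed with sgRNA3 (0.36 and 0.21, limma adjusted p = 0.0089 and 0.0237) and not with sgRNA1 (0.15 and 0.15, adjusted p = 0.0772 and 0.0646). The HSP90 calls were lost without either LACZ library or either S3 library (0.0524, 0.0599, 0.0567 and 0.0618 for HSP90AA1, 0.0997, 0.104, 0.1001 and 0.122 for HSP90AB1).

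In the matrix, HSPE1, the co-chaperonin that closes the HSP60 folding chamber, rose with both guides. It was at 403 and 366 TPM in LACZ, 537 and 570 with sgRNA1 and 541 and 538 with sgRNA3 (changes in log2 of 0.52 and 0.49, limma adjusted p = 0.0135 and 0.0132). Its calls were lost without S1_1 or S1_2 for sgRNA1 (0.0516 and 0.0753) and without LACZ_2, S3_1 or S3_2 for sgRNA3 (0.056, 0.0715 and 0.0735). HSPD1, the HSP60 itself, was at 395 and 386 TPM in LACZ, 449 and 425 with sgRNA1 and 515 and 507 with sgRNA3, and passed with sgRNA3 (0.39, limma adjusted p = 0.00964), a call lost without either LACZ library or either S3 library (0.0555, 0.0644, 0.0642 and 0.0588). The outer membrane sorting genes SAMM50 and DNAJC11 also passed with sgRNA3 alone (0.28 and 0.32, limma adjusted p = 0.0487 and 0.0372), calls lost without any single one of the 6 libraries (0.0714 to 0.179 and 0.0656 to 0.148). Differences between the guides passed for none of the 46 genes in limma, and 11 had an unadjusted p under 0.05. None of the 3 genes of intermembrane space oxidation, 6 processing peptidases, 10 quality control genes, 2 inner membrane insertases, AGK or TIMMDC1 passed with either guide.

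**Figure D5:**
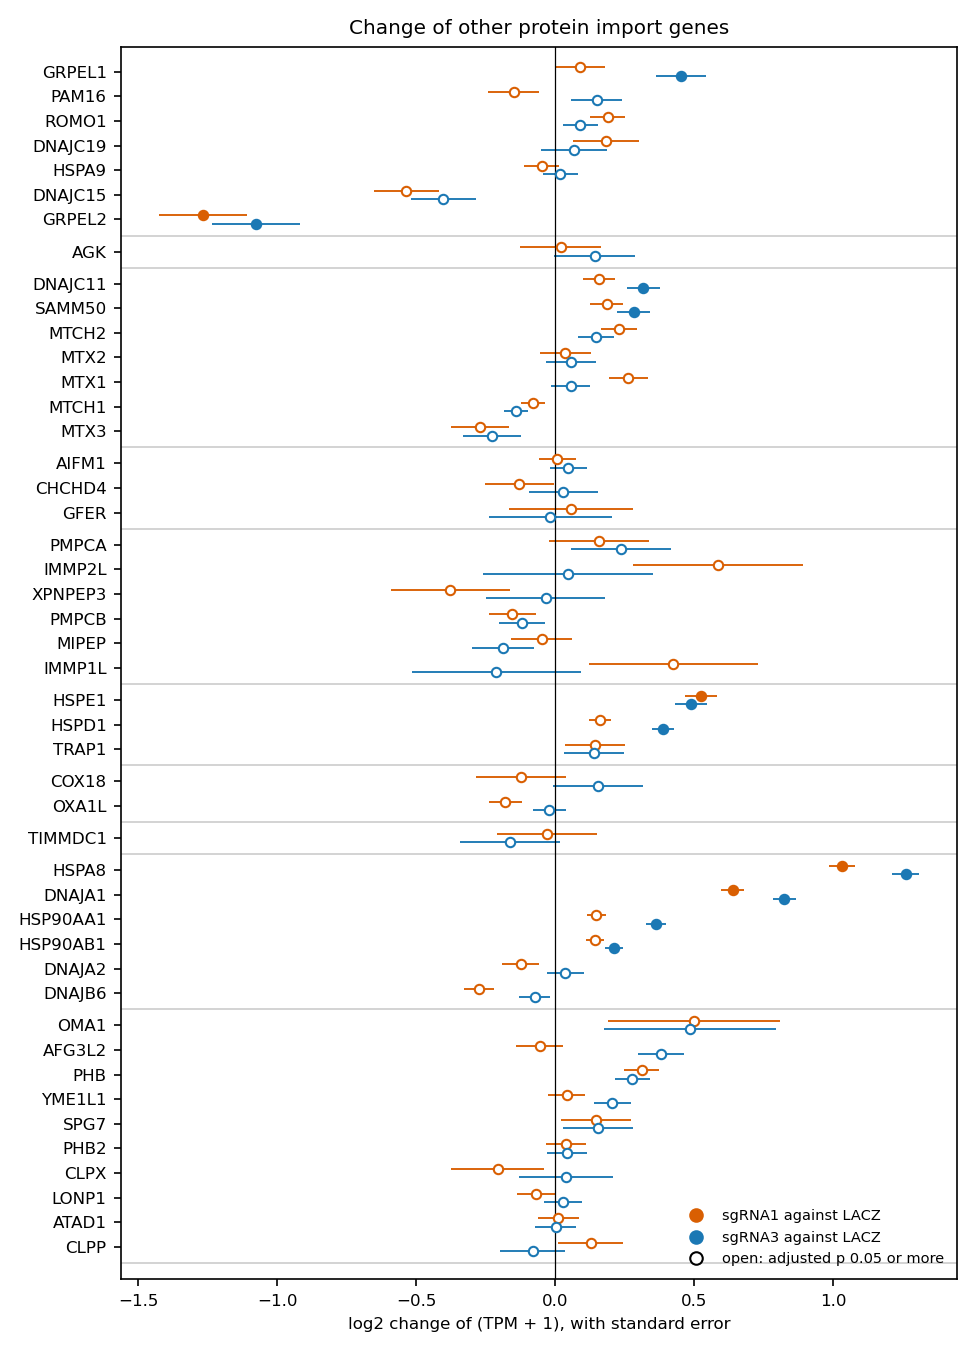
Log2 change of (TPM + 1) against LACZ with its standard error for the 46 other import genes, sgRNA1 in orange and sgRNA3 in blue; blocks from the top are motor, AGK, outer membrane sorting, intermembrane space oxidation, peptidases, matrix folding, insertion, TIMMDC1, cytosolic chaperones and quality control, and filled points have an adjusted p under 0.05. HSPA8, DNAJA1 and HSPE1 lie to the right of 0 and GRPEL2 to the left with both guides. ROMO1 is shown in the block of the motor.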

How the data were processed

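Transcript levels were measured by RNA-seq of total RNA in 6 CFPAC-1 libraries. The deposited values are TPM, made by the authors; the tools listed in the submitters' processing notes are RSEM 1.3.1, HISAT2 2.1.0 and DESeq2 1.24.0, with GRCh38 as the build and no role or order stated. TPM keeps no sequencing depth, so depth is unknown and counting intervals are left out. The H1 and H3 columns were taken as titles S1 and S3 by their guide number.

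Genes with a TPM of at least 1 in at least 2 libraries (16610) were fitted as log2(TPM + 1) with limma 3.58.1 in R 4.3.3, with an intensity trend, all 3 groups in a single fit (3 residual and 2.34 prior degrees of freedom). P-values are two-sided, adjusted by Benjamini-Hochberg across every gene tested, threshold 0.05. Fold changes on this scale understate those of low genes. The labels do not say whether replicates were separate cultures, so p-values cover only library-to-library spread, which may be technical. DESeq2 was not run here, since TPM values are not counts. On data simulated for sgRNA1 against LACZ over 16610 genes, 1 of 100 genes changed by 0.5 on the log2 scale and 37 of 100 changed by 1 were recovered, with 2 false calls. The simulated variance of each gene was the mean of its own and the squared median SD over all genes. Genes with closer replicates than that median were given more noise than they show, so this recovery does not describe them. Coordinates and transcripts are from GENCODE 29, promoter windows from RefSeq (GRCh38.p14). All members were named, with values per library for those that passed, the highest of each compartment and near-identical copies, and of the other import genes HSPA9 and those that passed with both guides. Values beyond this rule were added after they were seen. Members and lists were chosen with earlier results of these data known, and the pairs of members and the overlapping genes after their values were seen. Alternatives were other pseudocounts (0.1 and 5), filters, scalings, variance models and groups, a replicate block and leaving out each library.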

Additional observations from a re-analysis of the deposited data

How the results depend on the processing

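Of the 8 calls of members against LACZ, none changed sign under the 17 alternatives, but 60 of 136 refits lost the call, 40 of them among the 48 that left out a library. The count of members called (4 with either guide) became 2 and 2 without a filter on low values, 0 and 1 without the intensity trend, and 2 and 2 with only the groups compared. Leaving out single libraries gave 0 to 1 members with sgRNA1 and 0 to 2 with sgRNA3, where over all genes 163 to 464 and 242 to 967 were called, with fewer libraries in each fit. Other import genes called with sgRNA1 (4) became 8 with a filter of TPM at least 5, 9 under median-of-ratios scaling, 2 without the trend and 2 to 4 without single libraries. With sgRNA3 (10) they became 5 without a filter, 2 without the trend and 2 to 7 without single libraries. The median of TIMM genes with sgRNA1 (0.08) became 0.16 with median-of-ratios scaling and 0.16 with quantile normalization. Between the guides (0.16) it became 0.11 under quantile normalization. Without single libraries the median of TIMM genes ran from 0.075 to 0.12 with sgRNA1, 0.073 to 0.25 with sgRNA3 and 0.092 to 0.23 between the guides. That of TOMM genes ran from -0.02 to 0.07, 0.02 to 0.11 and -0.05 to 0.06 in the same order, below 0 without S1_1 and, between the guides, without S3_1. Apart from the settings stated, the cause was not tested. Over all genes with sgRNA1, 281 were called higher and 716 lower, against 610 and 578 (median-of-ratios scaling) and 442 and 560 (quantile normalization); with sgRNA3, 637 and 872 became 1020 and 806, and 776 and 808. Under quantile normalization the median difference of TOMM genes between the guides turned from 0.04 to -0.01.

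Replicate numbers did not pair the samples: the replicate differences of the groups correlated at -0.02, 0.01 and -0.03 across genes. With a replicate block, 1 member passed with sgRNA1 and 3 with sgRNA3, 4 and 5 other import genes passed, and over all genes 377 and 561 were called.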

Other observations

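TOMM20L, a paralog of TOMM20 that was left out for its low level, was at 0 and 0.19 TPM in LACZ, 0 and 4.55 with sgRNA1 and 0 and 0.41 with sgRNA3. A single library, S1_2, held nearly all of it. Its exons overlap those of TIMM9 on the opposite strand over 173 bases.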
